A study of Mus musculus with 24 samples.

Results

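Microglia are the resident macrophages of the brain. They carry a core set of surface genes, among them P2ry12 and Cx3cr1, and they answer tissue damage, microbial products and enzymatic dissociation by switching on the cytokine Tnf, the chemokines Ccl3 and Ccl4 and other targets of the transcription factor NF-kB. The cells described here are the microglia in which no Tnf transcript and few or no Ccl3 and Ccl4 transcripts were counted. A cell entered the set when it had at least 1000 UMIs (transcript molecules counted once each), at least 500 detected genes and at most 20% mitochondrial UMIs, a sum of at least 4 UMIs over P2ry12, Tmem119, Cx3cr1 and Siglech, at most 1 UMI over the macrophage genes Mrc1 and Pf4, no UMI of Tnf and at most 4 UMIs over Ccl3 and Ccl4. Of 103715 cells that passed the filters, 14579 (14.1%) met the microglial part of this rule and are called gated microglia, and 1551 (1.5% of passing and 10.6% of gated cells) met all of it. They are called Tnf-negative, Ccl3/Ccl4-low microglia. Motor cortex held 1038 of them among 9895 gated and 50361 passing cells, and dorsal striatum 513 among 4684 gated and 53354 passing cells. P-values below set a difference against the spread between pools, or, for hemispheres, against the spread between pools of the difference between sides. The cells were thus chosen by the measured UMIs of these 9 genes, so their levels are described and not tested.

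The cells came from papain-dissociated primary motor cortex of Fos-CreER::Ai9 mice and dorsal striatum of Arc-CreER::Ai9 mice, strains in which neurons active around labelling switch on a tdTomato reporter. The driver line differed between regions, so region and line cannot be told apart. In each region, early mice were labelled after 2 days and late mice after 8 days of training on a reaching task, control mice were labelled without training, and tissue was taken 3 days after labelling. Each of the 6 groups of a region and stage had 2 pools of 2 mice, prepared by hemisphere, and the pool was the replicate. Only the early replicate 2 and late replicate 2 pools lay on flow cells that held both regions. All other pools lay on flow cells with pools of 1 region, and the main gene tests do not adjust for flow cell. Each title names its pair of mice by 1 number with the letter M and 1 with F, read here as a male and a female.

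Matrices were analysed for 23 of 24 libraries. For control replicate 1 of dorsal striatum the right hemisphere was not analysed here, so that pool rests on 1 library. Libraries held 469 to 7087 passing cells and 3 to 234 Tnf-negative, Ccl3/Ccl4-low cells, and pools held 22 to 382 of them with 39849 to 845774 UMIs in all. Of 1550 distinct barcodes of these cells, 1 occurred in 2 libraries. By Scrublet score, 149 of the 1551 cells (9.61%) were called doublets, against 4.92% of all passing cells, a share set in advance from barcode numbers. The called cells had a median of 3802 UMIs, against 1661 in the others, and held between 2.82% and 40.9% of a pool's UMIs. The motor cortex control libraries went against a male and a female in each library. In the other 19 libraries, 28.1% to 52.7% of passing cells had a UMI of Xist, which female cells express, and 16.1% to 36.7% had one of 4 Y-linked genes. Both libraries of motor cortex control replicate 1 had Xist in 0.0671% and 0.426% of passing cells and Y-linked genes in 25.7% and 31.6%. In replicate 2, the right-hemisphere library had Xist in 93.3% and Y-linked genes in 0.0656%, and the left had 0.0615% and 64.7%. Transcripts of 1 sex were thus almost absent from each of these 4 libraries, and Xist from both libraries of control replicate 1. In replicate 2 both sexes were seen, each in a different hemisphere's library. Of the 80 Tnf-negative, Ccl3/Ccl4-low cells of replicate 1, 77 came from its right-hemisphere library. The main results over both regions are also given without the 2 pools, an alternative chosen after these values were seen. Comparisons with motor cortex control cannot be made without them. Dorsal striatum early replicate 1 stood apart in the share of these cells (30.1% of its gated microglia), and the shares compared between regions are given with and without it.

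Upstream sequences of 4 genes are shown because the genes bear on what separates the Tnf-negative, Ccl3/Ccl4-low cells from the other gated microglia. Cxcl2, Nfkbia and Il1a are inflammatory genes at a lower level in them, and P2ry12 is a microglial identity gene that the rule used. Each run holds the 250 bases before the annotated start, 5′ to 3′ on the gene's strand, from RefSeq (GRCm38.p6). Capitals mark a match to the NF-kB motif (3 G, any 2 bases, 3 T, then 2 C) or to the AP-1 motif TGANTCA, searched on both strands together with the PU.1 motif GAGGAAGT. The sequences are, with their positions, chr5:90903649-90903898 (+) for Cxcl2, chr12:55492648-55492897 (-) for Nfkbia, chr2:129309973-129310222 (-) for Il1a and chr3:59262986-59263235 (-) for P2ry12.
Cxcl2: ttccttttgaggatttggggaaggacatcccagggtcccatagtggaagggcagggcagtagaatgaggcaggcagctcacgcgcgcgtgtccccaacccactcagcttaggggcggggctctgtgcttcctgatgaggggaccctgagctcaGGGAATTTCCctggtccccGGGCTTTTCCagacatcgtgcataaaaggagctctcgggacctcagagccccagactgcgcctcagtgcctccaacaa
Nfkbia: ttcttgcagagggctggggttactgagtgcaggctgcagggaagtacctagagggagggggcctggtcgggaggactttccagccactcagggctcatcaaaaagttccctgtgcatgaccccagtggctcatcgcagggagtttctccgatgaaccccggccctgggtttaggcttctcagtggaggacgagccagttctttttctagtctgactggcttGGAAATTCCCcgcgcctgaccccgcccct
Il1a: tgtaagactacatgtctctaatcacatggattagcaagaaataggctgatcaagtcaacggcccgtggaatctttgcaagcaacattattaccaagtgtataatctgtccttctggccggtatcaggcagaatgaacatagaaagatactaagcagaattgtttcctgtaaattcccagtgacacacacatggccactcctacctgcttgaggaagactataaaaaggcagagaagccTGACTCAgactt
P2ry12: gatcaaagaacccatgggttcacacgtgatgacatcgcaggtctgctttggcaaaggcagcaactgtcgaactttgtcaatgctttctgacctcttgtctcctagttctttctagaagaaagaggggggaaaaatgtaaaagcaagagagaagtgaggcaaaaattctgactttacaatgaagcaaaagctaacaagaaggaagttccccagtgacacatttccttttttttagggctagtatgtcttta
In the Cxcl2 run, NF-kB matches begin 97 and 78 bases before the start. Nfkbia, which encodes the inhibitor of NF-kB, has one at 29 bases, on the opposite strand, and Il1a has an AP-1 match at 12 bases. The P2ry12 run holds none of the 3 motifs. The 3 inflammatory genes were picked for their matches: the windows searched for Tnf, Ccl3, Il1b, Gdf15, Edn1 and Slc7a11 hold none. Of 32851 upstream windows of this length, 1.41% hold the NF-kB motif, 6.75% the AP-1 motif and 2.44% the PU.1 motif. A match is a run of letters and was not tested as a binding site.

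The 4 marker genes of the rule were present throughout. P2ry12, a purinergic receptor, stood at 1133 to 2411 CPM (counts per 1e6 UMIs of these cells) in the 12 pools, and Cx3cr1, the fractalkine receptor, at 954 to 3075 CPM. The median sum of the 4 markers was 12 UMIs per cell, against 10 in the other gated microglia. Genes outside the rule gave the same cell type. Csf1r, the receptor gene that microglia need for survival, had a UMI in 86.9% of the cells (95% exact binomial interval 85.1% to 88.6%) after every cell was thinned to 1000 UMIs. The share was 0.494% in passing cells with no UMI of the 4 markers, of Mrc1 or of Pf4, called marker-free cells below. These are the other cells of the tissue, neurons and glia included, so their share holds their own expression as well as free RNA.

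The label of cells without activation did not hold in full. At least 1 UMI of Ccl3 or Ccl4 was found in 1056 of the 1551 cells (68.1%), and 495 had none. After thinning, 30.9% had a Ccl3 UMI and 30.8% a Ccl4 UMI, against 1.73% and 1.60% of marker-free cells. The cytokine gene Il1a had a UMI in 53.7% of the thinned cells and in 0.562% of marker-free cells. The thresholds cut through continuous counts. There were 74 cells just inside the marker threshold, with a sum of 4, and 91 just outside it with a sum of 3. The Ccl3 and Ccl4 threshold had 230 cells at a sum of 4 and 188 Tnf-negative cells at 5. A further 467 gated cells with few Ccl3 and Ccl4 UMIs had a single Tnf UMI, and 48 of the 1551 cells had 1 UMI of Mrc1 or Pf4.

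The share of gated microglia that were Tnf-negative and Ccl3/Ccl4-low ranged from 2.44% to 30.1% over the 12 pools. In motor cortex it was 8.83% and 9.22% in the control pools, 15.0% and 6.27% in the early pools and 9.05% and 15.4% in the late pools (replicates 1 and 2). In dorsal striatum it was 8.40% and 5.25% in the control, 30.1% and 2.44% in the early and 4.85% and 5.22% in the late pools. The 2 early pools of each region differed more from each other than the stages did.

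**Figure D1:**
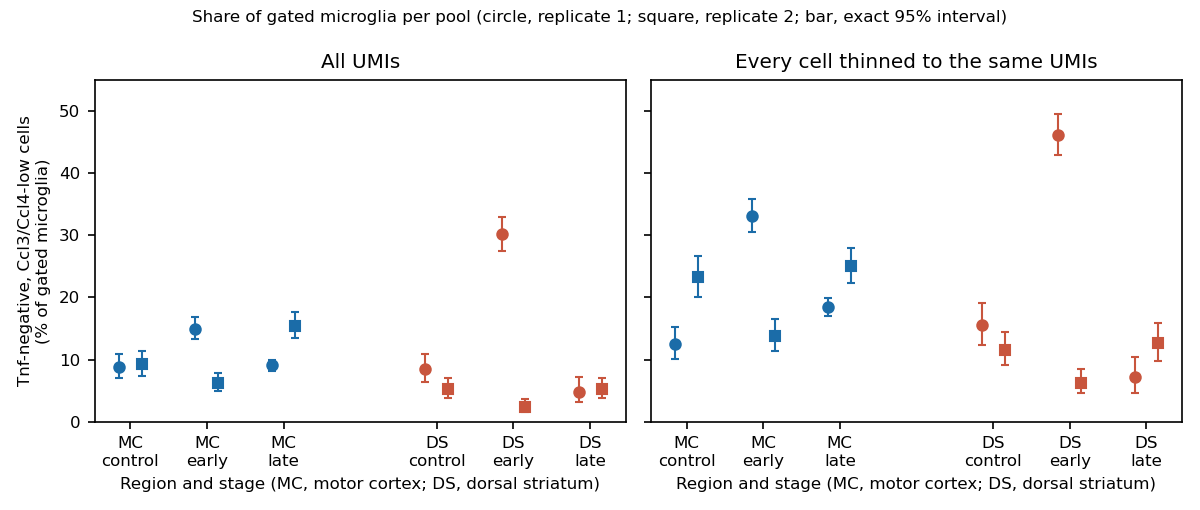
Share of gated microglia that were Tnf-negative and Ccl3/Ccl4-low (%, y axis) in each pool, by region and stage (x axis), from all UMIs (left) and after thinning every cell to 1000 UMIs (right). Points are pools, bars exact 95% binomial intervals that cover counting error only. Dorsal striatum early replicate 1 lies highest in both panels (30.1% and 46.2%).

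Mean shares were 10.6% of gated microglia in motor cortex and 9.38% in dorsal striatum, and the regions' pools overlapped (exact permutation test, 6 pools against 6, two-sided, p = 0.857, and 0.892 after Benjamini-Hochberg adjustment over the 5 measures compared between regions). The difference, motor cortex minus dorsal striatum, was 1.25 percentage points and rested on the early striatal pools. It was 5.40 without early replicate 1 and -0.143 without early replicate 2. The former pool is left out because it stood apart in this very share, so no p is given for values without it. Without early replicate 1 the motor cortex pools lay at 6.27% to 15.4% and the 5 remaining striatal pools at 2.44% to 8.40%. As a share of passing cells, motor cortex had 1.97% and dorsal striatum 0.979% (p = 0.167, adjusted 0.417, exact permutation test), a difference of 0.988 percentage points, or 1.51 without that pool and 0.839 without early replicate 2. All gated microglia together made up 18.3% of passing cells in motor cortex and 9.11% in dorsal striatum (p = 0.00433, adjusted 0.0216, exact permutation test). Without both motor cortex control pools the last p was 0.00952 that for the share of gated microglia 0.752 and that for the share of passing cells 0.171 (exact permutation tests, 4 pools against 6).

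No stage comparison of these shares can reach a p under 0.333 with 2 pools against 2. The largest of the 6 stage differences in the share of gated microglia, late minus early dorsal striatum, was -11.3 percentage points (p = 1, exact permutation test), with the 2 late pools between the 2 early ones. It rests on early replicate 1, since early replicate 2 alone had 2.44%, against a late mean of 5.04%. The share also differed with depth. With the cells of all pools together it was 14.9% among gated microglia with at least 1000 and under 1500 UMIs, 11.0% from there to under 2000, 7.75% to under 3000, 7.82% to under 5000 and 13.2% at 5000 or more. Within pools, weighted equally, these shares averaged 15.2%, 11.3%, 6.78%, 7.45% and 12.5%. The first was above the third in each of the 12 pools and above the last, which held as few as 8 gated cells in a pool, in 7. The median was 1743 UMIs in the Tnf-negative, Ccl3/Ccl4-low cells and 1982 in the other gated microglia. Thinning every cell to 1000 UMIs raised the shares to 12.5% to 33.1% in motor cortex and 6.30% to 46.2% in dorsal striatum, with means of 21.0% and 16.5% (p = 0.548, exact permutation test). The limits for Tnf, Ccl3 and Ccl4 stayed the same while cells lost UMIs, and the gated set was redrawn. A rise is thus partly built in. Without dorsal striatum early replicate 1 the thinned striatal mean was 10.6%, and gated microglia made up 8.54% of striatal passing cells.

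The levels of microglial identity genes outside the rule were close to those of the other gated microglia. The 2 sets of cells differ by construction in Tnf, Ccl3 and Ccl4, so the comparison is a description, with no test. Of 27 identity genes measured, 12 had a lower and 15 a higher mean, and the median log2 ratio (with 5 CPM added to both levels) was 0.01. It was 0.08 over the 1771 genes that reached 100 CPM in either set of cells and -0.06 over the 641 of them that stood at least 2 times above marker-free cells. Csf1r had a lowest, median and highest level of 1133, 2182 and 3139 CPM in the motor cortex pools and 1079, 2045 and 2718 CPM in the striatal pools. Its mean was 2073 ± 709 CPM (SD, n = 12 pools) against 2057 ± 433 CPM in the other gated microglia. The difference was smaller than either SD, which does not measure the spread of differences within pools.

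Single identity genes departed from this. Cst3, which encodes the protease inhibitor cystatin C, was lower in all 12 pools, at 43161 ± 9299 against 51878 ± 9375 CPM (SD, n = 12). Sall1, a transcription factor of microglial identity, had 161 ± 80.8 against 110 ± 43.8 CPM and was higher in 10 of 12 pools. P2ry13, a purinergic receptor, had 297 ± 147 against 218 ± 58.5 CPM and was lower in 4 pools.

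**Figure D2:**
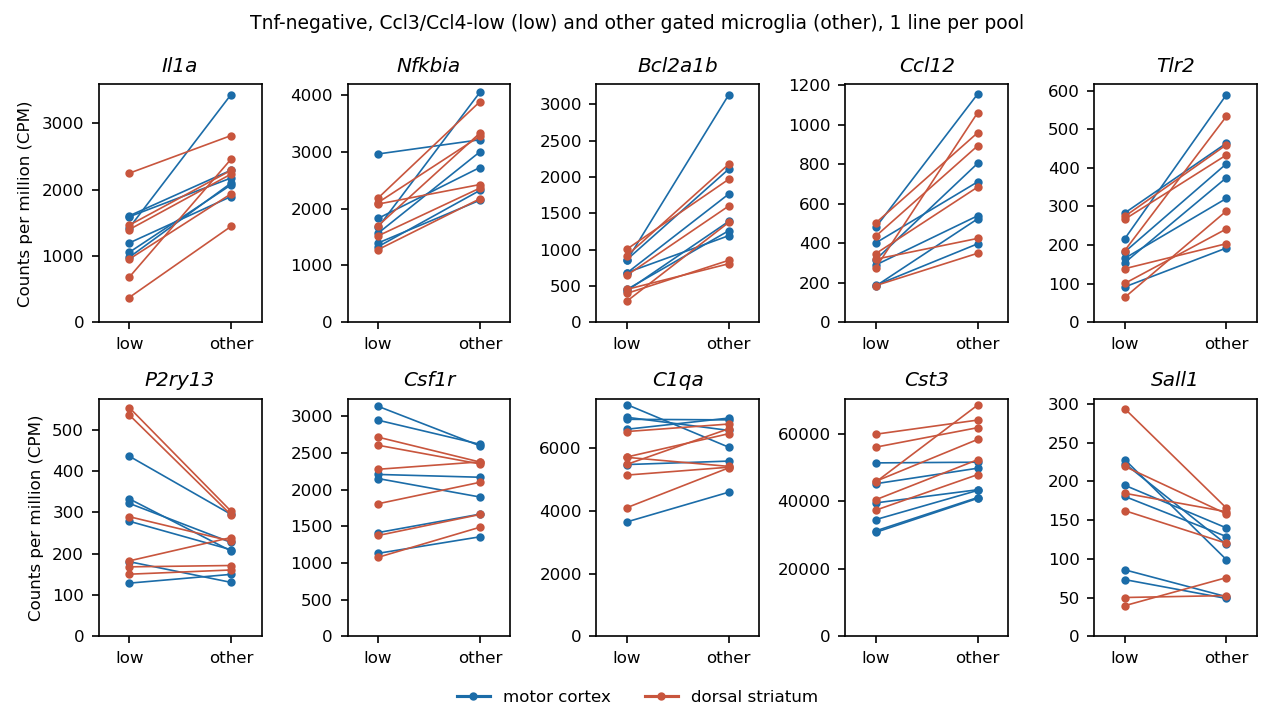
Level (CPM, y axis) of 10 genes in the Tnf-negative, Ccl3/Ccl4-low microglia (low) and in the other gated microglia (other), with 1 line per pool coloured by region. Lines for the inflammatory genes in the upper row all climb to the right, those for P2ry13, Csf1r and C1qa run both ways, Cst3 climbs in all 12 pools and most Sall1 lines descend.

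Inflammatory genes that the rule did not name were lower together with Tnf, Ccl3 and Ccl4. The gene lists were chosen with earlier results of these data known, so these counts are descriptions. All 21 measured genes of the cytokine and NF-kB response list had a lower mean than in the other gated microglia, 12 of them in all 12 pools, with a median log2 ratio of -1.0. Of these, 18 reached 100 CPM in the Tnf-negative, Ccl3/Ccl4-low cells themselves, all 18 with a lower mean and a median of -0.93. Over the 1664 genes that did so, 591 had a lower mean and the median was 0.10. Over the 641 genes, 70 (10.9%) were lower in all 12 pools, Ccl3 and Ccl4 among them, and 0 were higher in all 12. Over all 1771 genes 88 were lower and 10 higher in all 12 pools, and of the 1664 that reached 100 CPM in these cells themselves 57 were lower in all 12. The chemokine gene Cxcl2 had 139 ± 163 against 634 ± 468 CPM (SD, n = 12 pools). Bcl2a1b, an anti-apoptotic NF-kB target, had 638 ± 234 against 1634 ± 650 CPM. Nfkbia had 1804 ± 477 against 2912 ± 654 CPM. All 3 stood above marker-free cells, which averaged 4.7 CPM for Cxcl2, 3.6 CPM for Bcl2a1b and 101 CPM for Nfkbia.

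The interleukin gene Il1a (chr2:129299610-129309972) had a lowest, median and highest level of 978, 1308 and 1603 CPM in motor cortex and 372, 1174 and 2247 CPM in dorsal striatum. Its mean was 1245 ± 489 CPM, against 2261 ± 495 CPM in the other gated microglia, and it was lower in each of the 12 pools. The T-cell costimulation gene Cd83 had 1893 ± 623 against 2824 ± 607 CPM, and Gadd45b, a stress response gene, 603 ± 254 against 1334 ± 512 CPM. The monocyte chemoattractants Ccl2 (295 ± 228 against 654 ± 289 CPM) and Ccl12 (327 ± 112 against 708 ± 270 CPM) were lower in 11 and 12 pools. In both regions the direction was the same: Il1a averaged 1307 against 2327 CPM in motor cortex and 1184 against 2196 CPM in dorsal striatum, and Cxcl2 96.3 against 653 and 182 against 615 CPM. With called doublets removed from both sets of cells, the list's median was -0.92 and all 21 genes were still lower, 10 of them in all 12 pools. Of the 641 genes, 50 (7.8%) were then lower in all pools, 45 of them among the 70. Leaving pools out of this count can only keep or add genes, so the 70 stay in it whatever the values. Without dorsal striatum early replicate 1 it was 71, and without both motor cortex control pools 92. Without the latter pools, all 21 genes of the list had a lower mean, 14 of them in all 10 pools.

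Gdf15, a stress-induced cytokine of the growth factor list, stood at 34.6 ± 34.5 against 470 ± 402 CPM (log2 ratio -3.58). It met the level filter through the other gated microglia alone. It was listed at 0 in dorsal striatum control replicate 1 and late replicate 1, and 39 of the 1551 cells held its 97 UMIs. Tlr2, a receptor for bacterial lipoproteins, had 177 ± 72.9 against 376 ± 129 CPM, and Cd14, a co-receptor for lipopolysaccharide, 799 ± 312 against 1247 ± 402 CPM, both in all 12 pools. Both belong to the complement and phagocytosis list, of which 9 of 14 measured genes had a lower mean and 3 were lower in all 12 pools, with a median log2 ratio of -0.17. C1qa, a complement gene, had 5795 ± 1145 against 6041 ± 763 CPM and was lower in 8 of 12 pools.

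All 10 measured mitochondrially encoded genes and 72 of 82 ribosomal protein genes had a lower mean, with median log2 ratios of -0.08 and -0.07, and their part in the other differences was not tested. Both measured interferon response genes (median -0.58) and both measured MHC class II genes (-0.40) had a lower mean. Genes near 100 CPM can meet the level filter through the other gated microglia alone, which favours a lower mean. This was set apart for all genes and for the cytokine and NF-kB response list, and for no other list. None of the measured mitochondrially encoded, ribosomal protein, interferon response or MHC class II genes was lower in all 12 pools. With called doublets removed, 8 of the 10 mitochondrially encoded, 60 of the 82 ribosomal and 1 of the 2 interferon response genes had a lower mean, Bst2 turning from -0.12 to 0.04. Antigen presentation genes H2-K1 (532 ± 217 against 797 ± 273 CPM) and H2-D1 (572 ± 170 against 786 ± 187 CPM) were lower in all 12 pools, and 4 of 5 measured MHC class I genes had a lower mean. Disease-associated microglia genes had a median log2 ratio of -0.27, with 10 of 11 lower and Apoe higher (1269 ± 1014 against 696 ± 285 CPM). Of these 11 genes, 2 were lower in all 12 pools, and 0 with doublets removed. A UMI of Apoe was found in 28.6% of the thinned cells and in 26.9% of marker-free cells, which include astrocytes, a cell type known to make it. Against a median of 0.08 over the 1771 genes, surface receptor genes had a median of 0.16 and 13 of 17 were higher, and 8 of 9 glycolysis genes were higher with a median of 0.32. Of the 1664 genes that reached 100 CPM in these cells, 591 had a lower mean, so a higher mean was the more common case. Glycolysis genes are expressed by neurons too, and neuronal markers were also higher in these cells, with values given below. Their part in this was not tested. The 15 measured transcription factor genes went both ways, 8 lower and 7 higher, with a median of -0.005. Lower in all 12 pools were Spi1, which encodes the lineage factor PU.1 (443 ± 113 against 644 ± 125 CPM), and Cebpb, a C/EBP family factor (421 ± 205 against 589 ± 265 CPM). The immediate early and dissociation list had a median of 0.004, with 10 of 20 lower. Within it, Maff, Ier3 and Nr4a1 were lower in all 12 pools, while Jun (1717 ± 1162 against 1313 ± 574 CPM) and Fos (967 ± 724 against 854 ± 390 CPM) overlapped widely.

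Within the Tnf-negative, Ccl3/Ccl4-low cells, levels were set out by the number of Ccl3 and Ccl4 UMIs. In the 9 pools with at least 10 cells in every class there were 477 cells with 0, 575 with 1 to 2 and 410 with 3 to 4 such UMIs, at median depths of 1756, 1750 and 1712 UMIs. P2ry12 averaged 1902, 1771 and 1572 CPM over these classes and 1491 CPM in the other gated microglia. Tmem119, a microglial membrane protein gene, averaged 1151, 1012 and 961 CPM and 781 CPM. Cx3cr1 averaged 2341, 2040 and 2011 CPM and 1708 CPM. Siglech, the remaining marker of the rule, averaged 1016, 1023 and 954 CPM and 1040 CPM, and did not follow that order. SDs over pools (430 to 470 CPM for P2ry12) exceeded the steps, but they do not measure the spread of a step within pools. Both the classes and these genes belong to the rule.

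The inflammatory genes did not all follow the same course. Il1a averaged 1022, 1234 and 1264 CPM, against 2175 CPM in the other gated microglia. Bcl2a1b averaged 611, 634 and 615 CPM, against 1693 CPM. The gap to the other gated microglia was larger than any step among the 3 classes for both genes. Gdf15 averaged 3.8, 35 and 48 CPM, against 415 CPM. Cells without any Ccl3 or Ccl4 UMI still had 1022 ± 422 CPM of Il1a and 1724 ± 733 CPM of Nfkbia (SD, n = 9 pools).

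**Figure D3:**
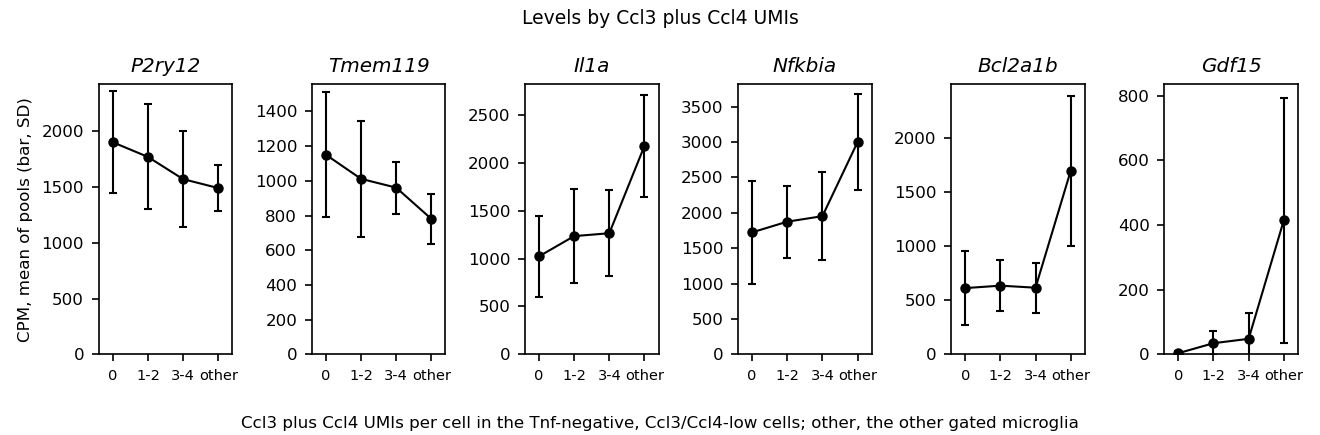
Level (CPM, y axis, mean of 9 pools with SD as bars) of 6 genes by the number of Ccl3 plus Ccl4 UMIs per cell (x axis), with the other gated microglia at the right. P2ry12 and Tmem119 decline from left to right, and Bcl2a1b is level from 611 to 615 CPM across the 3 classes before 1693 CPM in the other gated microglia.

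The cells also varied among themselves. The Fano factor (variance over mean of thinned UMIs within pools, 1 for random sampling) had a median of 1.04 over 3114 genes, and 172 genes exceeded 1.5. The 3 highest values belonged to the haemoglobin genes Hbb-bs, Hba-a1 and Hba-a2, carried by few cells: 1 cell held 1437 of 2809 Hbb-bs UMIs. Among genes that microglia make, the heat shock gene Hspa1a had a Fano factor of 16.0, and 78 cells held 75.7% of its UMIs. Cxcl2 reached 5.86 and Cxcl10, an interferon-induced chemokine gene, 5.47. Il1b, the second interleukin-1 gene, had 2.93 and Il1a 2.25. Cst3 (11.7) was abundant, and a Fano factor grows with the mean where cells differ in proportion.

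The 2 regions were compared gene by gene on UMIs summed per pool, with edgeR's quasi-likelihood test over all 12 pools and kit class as a covariate. Kit class, A or B, was inferred from how many cell barcodes the libraries shared, and no label names a kit. Of 4188 genes tested, 73 (1.74%) had a p under 0.05 after Benjamini-Hochberg adjustment and are termed called, 32 (0.764%) higher in motor cortex and 41 (0.979%) higher in dorsal striatum. Neuronal markers were among them. Striatal neuron genes such as Ppp1r1b and Penk were higher in dorsal striatum, with 11 of 12 tested spiny projection neuron markers called, and Slc17a7, the vesicular glutamate transporter gene, and Cck were higher in motor cortex, with 3 of 6 tested glutamatergic markers called. Of all called genes, 31 of the 32 and 38 of the 41 stood below marker-free cells of the same pools. The summed spiny projection neuron markers reached 1020 to 6173 CPM in striatal Tnf-negative, Ccl3/Ccl4-low microglia and 8101 to 12645 CPM in striatal marker-free cells. How much of these differences comes from free RNA or from doublets was not tested. With called doublets removed, 14 genes were called, 10 of them among the 73.

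**Figure D4:**
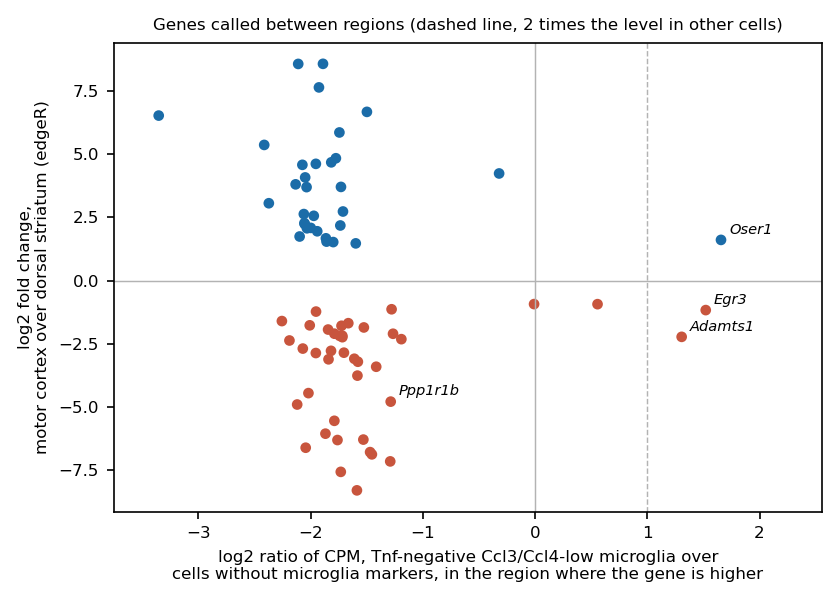
Log2 fold change between regions (edgeR, y axis, positive where motor cortex is higher) against the log2 ratio of CPM to marker-free cells (x axis) for the 73 called genes, blue where higher in motor cortex and red where higher in dorsal striatum. Only Oser1, Egr3 and Adamts1 lie right of the dashed line at 2 times the marker-free level.

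Calls in the lists of microglial genes were read against 1.74% of all genes, which gives under 1 call in a list of their size. None of the 27 identity genes, the 15 tested complement genes, the 22 tested cytokine and NF-kB genes or the 17 tested transcription factor genes was called, and nothing particular to these lists can be read from counts this small. Of 18 genes with levels given whatever their values and outside the rule, 0 were called and 6 had an unadjusted p under 0.05, as had 370 (8.83%) of all 4188 genes. Ccl2 came nearest, with 65.0, 172 and 290 CPM (lowest, median and highest pool) in motor cortex and 151, 337 and 804 CPM in dorsal striatum (log2 fold change -1.21, SE 0.32, adjusted p = 0.0719). The pools of the regions overlapped. Il1b had 244, 421 and 509 CPM in motor cortex and 48.7, 202 and 621 CPM in dorsal striatum (log2 fold change 0.90, SE 0.43, adjusted p = 0.562). Csf1r differed by 0.12 on the log2 scale (SE 0.21) and Il1a by 0.26 (SE 0.26), and a p that misses the threshold does not show that the regions were alike.

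Oser1, an oxidative stress responsive gene (chr2:163405822-163424697, minus strand), was the 1 gene that met the naming rule of a call, no overlap of pools and at least 2 times the marker-free level. Motor cortex pools had 134 and 80.2 (control), 118 and 55.8 (early) and 138 and 75.3 CPM (late), and striatal pools 29.7 and 20.5, 32.0 and 0, and 50.2 and 46.4 CPM. Every motor cortex pool lay above every striatal pool (log2 fold change 1.61, SE 0.38, adjusted p = 0.0337). No overlap of pools was seen for 49 of the 4188 genes (1.17%). The other gated microglia had the same order, with 58.4 to 176 CPM in motor cortex and 24.9 to 50.5 CPM in dorsal striatum. Within the flow cells that held both regions, the log2 difference was 3.13 for the early and 0.58 for the late replicate 2 pools. Its sign was fixed by the lack of overlap. A fit with flow cell in place of kit class leaves far fewer than the 5 residual degrees of freedom of the main fit. Calls made or lost in it therefore say little. The call was lost in DESeq2 (adjusted p = 0.0570), without the kit covariate (0.127), with flow cell in its place (1.0), at a marker sum of at least 8 (0.0501) and after thinning (0.145). It was also lost without dorsal striatum control replicate 1 (0.154), control replicate 2 (0.0594), late replicate 1 (0.145) or late replicate 2 (0.0632), or motor cortex early replicate 1 (0.173), and without dorsal striatum early replicate 1 the log2 fold change was 3.53. Without both motor cortex control pools it was 1.42 (adjusted p = 0.212).

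Adamts1 and Egr3 were higher in dorsal striatum and at least 2 times above marker-free cells. Their pools overlapped, so both fall outside the naming rule and were chosen after their values were seen. Adamts1, which encodes a secreted metalloprotease (chr16:85793827-85803113, minus strand), had 16.1, 34.0 and 84.3 CPM (lowest, median and highest pool) in motor cortex and 73.1, 150 and 312 CPM in dorsal striatum (log2 fold change -2.23, SE 0.35, adjusted p = 0.0013). Its highest level was in dorsal striatum early replicate 1, and without that pool the adjusted p was 0.0586. The call was also lost under the stricter cell filter (0.756) and with flow cell in place of kit class (1.0), a fit with few residual degrees of freedom. Egr3, an immediate early transcription factor gene (chr14:70077203-70082614, plus strand), had 41.4, 140 and 212 CPM in motor cortex and 75.3, 311 and 708 CPM in dorsal striatum (log2 fold change -1.17, SE 0.29, adjusted p = 0.0428). It was the single call among 22 tested immediate early and dissociation genes, 19 of which had a lower estimate in motor cortex, with a median of -0.34 against 0.06 over all genes tested. Its adjusted p was 0.129 without doublets and 0.507 without the kit covariate, and leaving out each pool in turn gave log2 fold changes of -1.59 to -0.94. The call was lost without any one of the 6 striatal pools (adjusted p 0.0667 to 0.479) and without motor cortex control replicate 2 (0.125) or early replicate 2 (0.0709). Without both motor cortex control pools the adjusted p was 0.239 for Egr3 and 0.0109 for Adamts1.

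**Figure D5:**
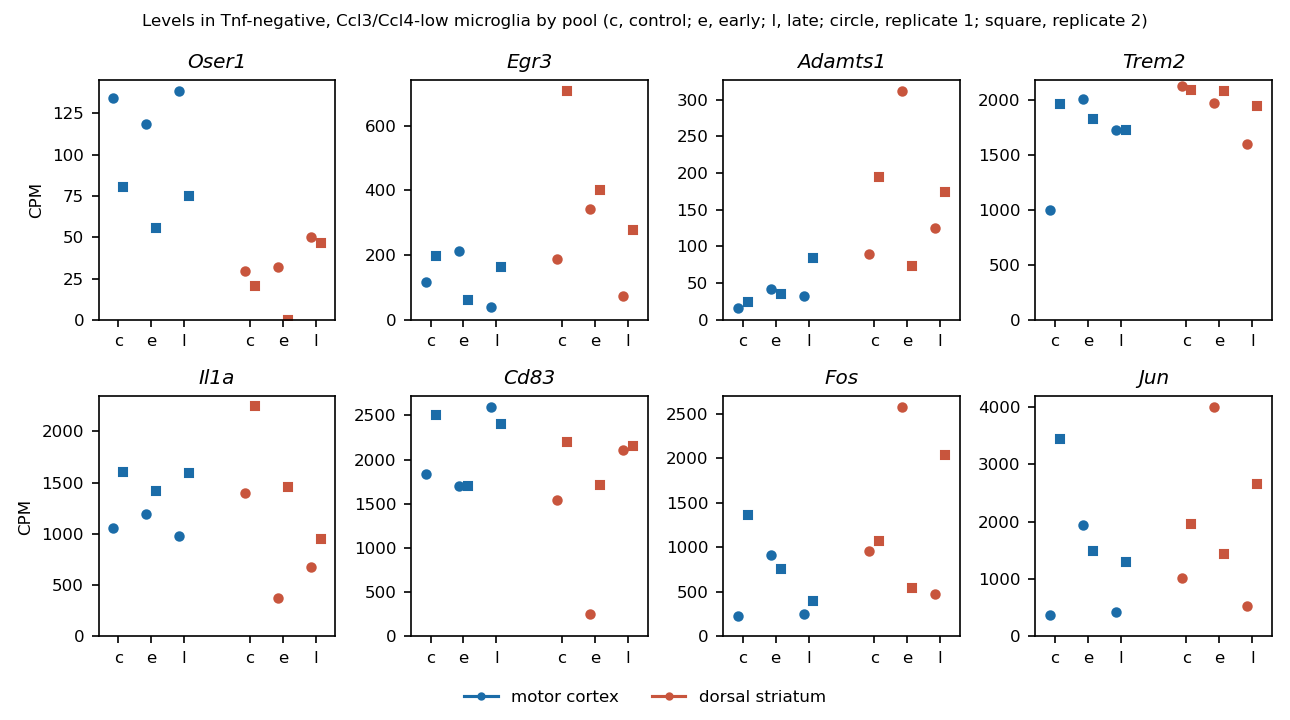
Level (CPM, y axis) of 8 genes in the Tnf-negative, Ccl3/Ccl4-low microglia of each pool, by region (colour) and stage (c, control; e, early; l, late). Oser1 separates the regions, whereas Egr3, Adamts1, Trem2, Il1a, Cd83, Fos and Jun overlap, and Cd83 is lowest (252 CPM) in dorsal striatum early replicate 1.

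The count of 73 moved by more than 1.5 times in several settings. It was 38 without dorsal striatum late replicate 1, 157 without motor cortex control replicate 2, 121 without motor cortex late replicate 1 and 113 without motor cortex late replicate 2. Without both motor cortex control pools, and with region taken over early and late pools, 38 of 3103 genes were called, 34 of them among the 73. With flow cell in place of kit class, a fit with few residual degrees of freedom, 17 genes were called. Of the 73 genes, 63 kept their direction in both flow cells that held the 2 regions. The pools of these flow cells also gave the calls, so a kept direction is no separate check. In the 495 cells with no Ccl3 or Ccl4 UMI, 1 gene was called.

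With all pools and kit class as a covariate, training stage gave no called gene in either region. Every early pool was of class B, whereas in each control and late group replicate 1 was of class A and replicate 2 of class B. Comparisons of early pools with the other stages thus rest on a kit estimate from the control and late groups. Between early and control, late and control, and late and early pools of motor cortex, 0 of 4188 genes (0%) were called by edgeR and 54 (1.29%), 58 (1.38%) and 73 (1.74%) had an unadjusted p under 0.05. The 3 comparisons in dorsal striatum gave 0 calls with 179 (4.27%), 174 (4.15%) and 153 (3.65%) at that level. DESeq2 also called 0 genes in these 6 comparisons. The counts moved with the setting: early against control dorsal striatum gave 12 calls with flow cell in place of kit class and 14 with doublets removed, and up to 7 with a pool left out (motor cortex control replicate 1 or 2). Late against control dorsal striatum gave up to 8, without motor cortex late replicate 1, and the motor cortex comparisons up to 4. With 2 pools in a group, these counts do not show that the stages were alike. The fit with flow cell leaves few residual degrees of freedom, so its counts say little. The comparisons with motor cortex control, region by stage included, rest on the libraries in which transcripts of 1 sex were almost absent, and the part of sex in them was not tested.

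Levels by pool show the spread behind this. Il1a stood at 1053 and 1603 CPM in control, 1195 and 1422 in early and 978 and 1590 CPM in late motor cortex pools. The 3 stages overlapped fully. In dorsal striatum Il1a had 1397 and 2247 CPM in control, 372 and 1462 in early and 678 and 950 CPM in late pools, where both late pools lay below both control pools. Cd83 had 1545 and 2195 CPM in control, 252 and 1718 in early and 2108 and 2156 CPM in late striatal pools. Jun, a transcription factor gene that dissociation induces, ran from 371 to 3447 CPM within the control motor cortex pools alone. In the control and late groups replicates 1 and 2 also differed in kit class, and its part in these gaps was not tested. The low Il1a and Cd83 of dorsal striatum early replicate 1 stood beside its highest Fos (2579 CPM) and Jun (4003 CPM) of the 12 pools. Whether the stage effects differed between regions was tested by a region by stage term, which called 0 genes for early against control (126 at an unadjusted p under 0.05, 3.01%) and 0 for late against control (109, 2.6%). DESeq2 called 0 and 1.

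Hemispheres of the trained mice were compared with the pool as a block. In motor cortex, edgeR called 2 of 4310 genes (0.0464%), 1 higher (0.0232%) and 1 lower (0.0232%) on the contralateral side, and 170 (3.94%) had an unadjusted p under 0.05. The haemoglobin gene Hbb-bs was higher on the contralateral side (log2 fold change 5.51, adjusted p = 9.4e-07), with 6693 CPM in the contralateral library of late replicate 1 and 27.2 to 68.3 CPM in the other 7 libraries. In 2 of the 4 pools the contralateral level was the lower one (47.1 against 51.3 CPM in early replicate 2 and 27.9 against 42.4 CPM in late replicate 2), so the direction rests on late replicate 1. A single cell held 1437 of all 2809 Hbb-bs UMIs. The neuropeptide gene Cck was lower on the contralateral side (log2 fold change -1.17, adjusted p = 0.0152) and stood at 141 to 772 CPM, below marker-free cells in each library. In early replicate 1 it was 180 CPM contralaterally and 166 CPM ipsilaterally. Without motor cortex late replicate 1 its adjusted p was 0.682, without early replicate 2 it was 0.0565, and 9 genes were called with doublets removed. In dorsal striatum 0 of 479 genes were called and 4 (0.835%) had an unadjusted p under 0.05. DESeq2 called 0 in both regions.

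Cd3e and Nkg7 of lymphocytes, S100a8 of neutrophils and Ly6c2 of monocytes had 0 UMIs in the 1551 cells, which allows a share of up to 0.193% of cells with a UMI. Ccr2 and Plac8, examined with them, went the other way. They had a UMI in 0.322% and 0.645% of thinned cells, against 0.0155% and 0.0657% of marker-free cells. The lymphocyte list had 8 of 12 genes at 0 and summed to 9.9 to 75.2 CPM over the pools, against 18.3 to 63.8 CPM in the other gated microglia and 33.4 to 198 CPM in marker-free cells. The monocyte and neutrophil list had 5 of 10 at 0 and summed to 0 to 97.6 CPM, against 16.2 to 37.1 CPM and 26.8 to 159 CPM. The perivascular macrophage list had 5 of 12 at 0. That list summed to 69.8 to 201 CPM over the pools, against 86.5 to 157 CPM in the other gated microglia and 7.7 to 28.3 CPM in marker-free cells. Cd74, the invariant chain of MHC class II, had a UMI in 6.90% of thinned cells (95% exact interval 5.69% to 8.28%), against 0.130% of marker-free cells, whereas H2-Aa, a class II chain, was found in 1 cell. The proliferation gene Mki67 had a UMI in 0.129% of thinned cells and in 1.87% of marker-free cells. Of 13 such genes compared between regions, Isg15, an interferon-stimulated gene, had the lowest p (1.86% of cells in motor cortex and 0.479% in dorsal striatum, exact permutation test, p = 0.017, adjusted 0.225), and its share in marker-free cells was 1.52%. The reporter tdtomato had 0 UMIs after thinning and 2 cells with a UMI before it. In marker-free cells too only 0.207% had one, so this feature says little about the reporter. The feature wpre, listed with it among the inserted sequences, had a UMI in 4.13% of thinned cells, against 8.41% of marker-free cells. It had 0 to 139 CPM over the 12 pools. With Neo, the third such feature, the list summed to 18.3 to 151 CPM, against 28.0 to 70.9 CPM in the other gated microglia and 48.7 to 178 CPM in marker-free cells.

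Neuronal and glial RNA was present in every pool. Pan-neuronal markers summed to 1314 to 10201 CPM in motor cortex and 1375 to 7202 CPM in dorsal striatum, below the 17064 to 22609 and 11997 to 13775 CPM of marker-free cells. All 8 measured pan-neuronal genes had a higher mean than in the other gated microglia, with a median log2 ratio of 0.56 (1.11 with doublets removed), although the sum was lower in motor cortex control replicate 2 and early replicate 1. The 4 measured oligodendrocyte genes had a median of 1.67, which rests on 1 pool: their list summed to 14293 CPM in dorsal striatum control replicate 1. In the other 11 pools the list summed to 85.9 to 313 CPM, against 106 to 1427 CPM in the other gated microglia of the same pools. The part of these transcripts in the other differences was not tested.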

How the data were processed

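Single-cell 3′ RNA was measured in 24 libraries, of which 23 were analysed. The authors deposited raw UMI counts per gene and barcode, unnormalized, made with Cell Ranger 3.1.0 on GRCm38 (mm10) per the submitters' processing notes, while the file headers of the matrices name software 3.0.2. The members and gene lists were chosen with earlier results of these data known. UMIs of the selected cells were summed per pool and tested with edgeR 4.0.16 (TMM, filterByExpr, quasi-likelihood, Benjamini-Hochberg at 0.05) in R 4.3.3, over all 12 pools with a term for kit class, read from shared barcode sets, and 5 residual degrees of freedom. Hemispheres were compared over libraries of trained mice with the pool as a block. DESeq2 1.42.0 and other gates, filters and covariates were alternatives. The package limma 3.58.1 was present for edgeR, and no limma fit was run. Doublets were called per library with Scrublet (scanpy 1.11.5, seed 11, 0.8% per 1000 barcodes) and kept, except in an alternative. Shares of cells were compared by exact two-sided permutation over pools (scipy 1.17.1), and thinning drew 1000 UMIs per cell. Exact 95% binomial intervals and the limit of 3 counts cover counting error only. The named genes were, per comparison and direction, at most 10 called genes whose groups did not overlap and that stood at least 2 times above marker-free cells in the higher group, leaving out genes of the rule and sex-linked genes; further genes were given by list or whatever their values. Replicate numbers follow the order of the samples and pair none. The fitting steps were tested on simulated data. Some genes are not reported here.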

Additional observations from a re-analysis of the deposited data

Results flagged for a closer look

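Of 58 groups of 6 pools tested, 13 held a pool whose gap to the nearest other pool was wide for its group's range, where chance gives about 1 in 20. That rate does not hold for H2-Aa, Mki67, Spp1, Cst7 and Ccl5, which are at or near 0 in most pools, so that a few UMIs set a pool apart. Dorsal striatum early replicate 1 stood apart in the share of these microglia among passing cells (3.61%) and among gated microglia (30.1%), in a low Cd83 (252 CPM) and in Mki67 (4.18 CPM). Trem2, a lipid-sensing receptor gene, was low in motor cortex control replicate 1 (999 CPM) and in dorsal striatum late replicate 1 (1606 CPM). Apoe (2802 CPM) and Spp1 (62.7 CPM) were high in motor cortex early replicate 2. Ccl5 was high in motor cortex early replicate 1 (50.6 CPM), where 1 cell held 34 of all 43 Ccl5 UMIs, and was listed at 0 in the 6 striatal pools. Nfkbia was high in motor cortex control replicate 2 (2966 CPM). Hspa1a (2924 CPM) and H2-Aa (10.3 CPM) were high in dorsal striatum control replicate 2, the latter from 1 UMI, and Cst7 in dorsal striatum late replicate 2 (23.2 CPM).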

How the results depend on the processing

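Depth limits these results: 2 pools per group, pools of 22 to 382 cells, and few UMIs per gene. Of 140 counts or shares recomputed under other settings, 89 stayed within 1.5 times or on their side of the threshold. The region count of 73 became 191 with no filter on low counts, 29 without kit class, 17 with flow cell, 14 with doublets removed, 30 under the stricter cell filter, 1 in cells without a Ccl3 or Ccl4 UMI, 27 at a marker sum of 8 or more and 14 after thinning. Leaving out both motor cortex control pools, an alternative chosen after seeing the data, gave 38, 34 of them shared. The replicate block gave 86, holding 72 of the 73, although the numbers pair no samples. With no filter on low counts, motor cortex gave 3 calls for early and 2 for late against control and 8 for late against early, dorsal striatum 9, 15 and 6, region by stage 12 and 6, and the hemispheres 26 and 3. The fit with flow cell leaves few residual degrees of freedom. With flow cell, the counts were 2 for late against control motor cortex, 12, 5 and 5 in dorsal striatum, and 1 and 6 for region by stage. With doublets removed, they were 14 for early against control striatum, 3 and 13 for region by stage and 9 for the motor cortex hemispheres. In cells with no Ccl3 or Ccl4 UMI they were 1 for late against control motor cortex, 1 each for early against control and late against early striatum, 1 for region by stage early and 0 for motor cortex hemispheres. At a marker sum of 8 they were 1 for late against early striatum, 1 for region by stage early and 0 for motor cortex hemispheres. After thinning they were 2 for late against control motor cortex, 5 and 5 for striatal early against control and late against early, 4 and 1 for region by stage and 1 for motor cortex hemispheres. The replicate block gave 1 for late against early motor cortex and 2 and 1 for region by stage, and with no replicate block the motor cortex hemispheres gave 0. DESeq2 gave 1 for region by stage late and 0 for motor cortex hemispheres, where the stricter cell filter also gave 0. The regional difference in the share of gated microglia reversed to -0.333 in cells with no Ccl3 or Ccl4 UMI and to -0.143 without dorsal striatum early replicate 2. Leaving out each pool in turn, the counts ran from 38 to 157 for region, 0 to 2, 0 to 4 and 0 to 4 for the motor cortex stages, 0 to 7, 0 to 8 and 0 to 1 for the striatal stages, 0 to 10 and 0 to 8 for region by stage and 1 to 13 and 0 to 1 for hemispheres. The share differences ran from 0.722 to 1.51 of passing cells and from -0.143 to 5.40 of gated microglia. A group left with 1 pool was assumed to vary like the others. Of single-gene values, 24 of 47 lost the call under other settings and 16 of 42 with a pool left out. The cause was not tested.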

Other observations

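Of the 70 genes lower in all 12 pools, 55 had an upstream sequence, and 4 of these (7.27%) held the NF-kB motif, 6 (10.9%) the AP-1 motif and 4 (7.27%) the PU.1 motif. Among the 482 such genes of the 641 compared, the shares were 4.36%, 7.47% and 6.02%. The 70 include Ccl3 and Ccl4, which the rule used, and genes that met the level filter through the other gated microglia alone. The set was thus fixed in part by the rule and the filter. The shares are descriptions of letters in 250 bases, with no test.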
